A study of Craterostigma plantagineum with 12 samples.

Results

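Partial drying of the leaves of Craterostigma plantagineum, a plant that recovers from drying of its leaves to a few percent of their water, was followed by RNA sequencing. The comparison sets 3 libraries of leaves at about 60% relative water content (RWC) against 3 libraries of fresh leaves at 100% RWC. These 6 of the 12 libraries of the series were chosen by their labelled water content. Leaves at 60% RWC came from plants dried gradually in their pots for 3 to 4 days, and fresh leaves from untreated plants. All plants were multiplied vegetatively, the labels name no mutation or transgene, and the labels give a relative humidity of 60% and 14 h of light to 8 h of dark. Each library was an independent pool of leaves from 6 to 9 plants. No watered plants kept for the days of drying are among the libraries, so water content and time without water cannot be told apart, and the hour of sampling is not given in the labels. The values are whole-number reads and RPKM (reads scaled by contig length and by the total reads of the library) for 48045 contigs, which are assembled pieces of transcript. Several contigs can come from a single gene or from near-identical gene copies, and a contig count may not be read as a gene count. The names given to contigs are those of the deposited descriptions. A dagger (†) marks contigs picked after their values were seen.

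Leaves of this species are known to keep most of their chlorophyll when they dry and to fill their cells with sucrose, which is made at the cost of an unusual sugar, octulose, stored in watered leaves. Abscisic acid (ABA), the hormone of water shortage, binds receptors of the PYR/PYL family, which then block protein phosphatases 2C and so free SnRK2 kinases to switch on transcription factors. Among the targets known from many plants are late embryogenesis abundant (LEA) proteins and dehydrins, hydrophilic proteins thought to protect other proteins and membranes as water is lost. Photosynthesis, growth and defence programmes are usually turned down in the same period.

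The 6 libraries held between 14784251 and 17864253 reads each. The 3 libraries at 60% RWC were close to each other, with a common biological coefficient of variation of 0.142, against 0.526 among the 3 fresh libraries. Contigs spanning more than 8-fold between replicates numbered 125 at 60% RWC and 2483 in fresh leaves, of 44634 tested. Some of this spread was shared by contigs of the circadian clock. LATE ELONGATED HYPOCOTYL and CCA1 are transcription factors of the morning, and a contig described by both names (Cp_V2_contig_330) had 103, 73.5 and 121 RPKM at 60% RWC, against 378, 16.3 and 624 in fresh leaves. GIGANTEA is a clock protein of the evening, and its contig (Cp_V2_contig_4430†) had 77.3, 94.3 and 79.0 RPKM at 60% RWC, against 24.9, 154 and 6.34 in fresh leaves. Fresh replicate 2 was the lowest fresh library for the morning gene and the highest for the evening gene. Fresh replicate 1 stood out for jasmonate genes, which took 0.0843, 0.0995 and 0.0743% of reads at 60% RWC and 0.854, 0.280 and 0.186% in fresh leaves. It also stood out for an LEA-type contig, embryonic protein DC-8 (Cp_V2_contig_6178), which had 8745, 8646 and 8077 RPKM at 60% RWC, against 491, 59.6 and 44.5 in fresh leaves. The 3 libraries at 60% RWC differed less among themselves in each of these. Their part in the results was not tested, and values without a fresh library stand beside each result that such a library decides.

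**Figure D1:**
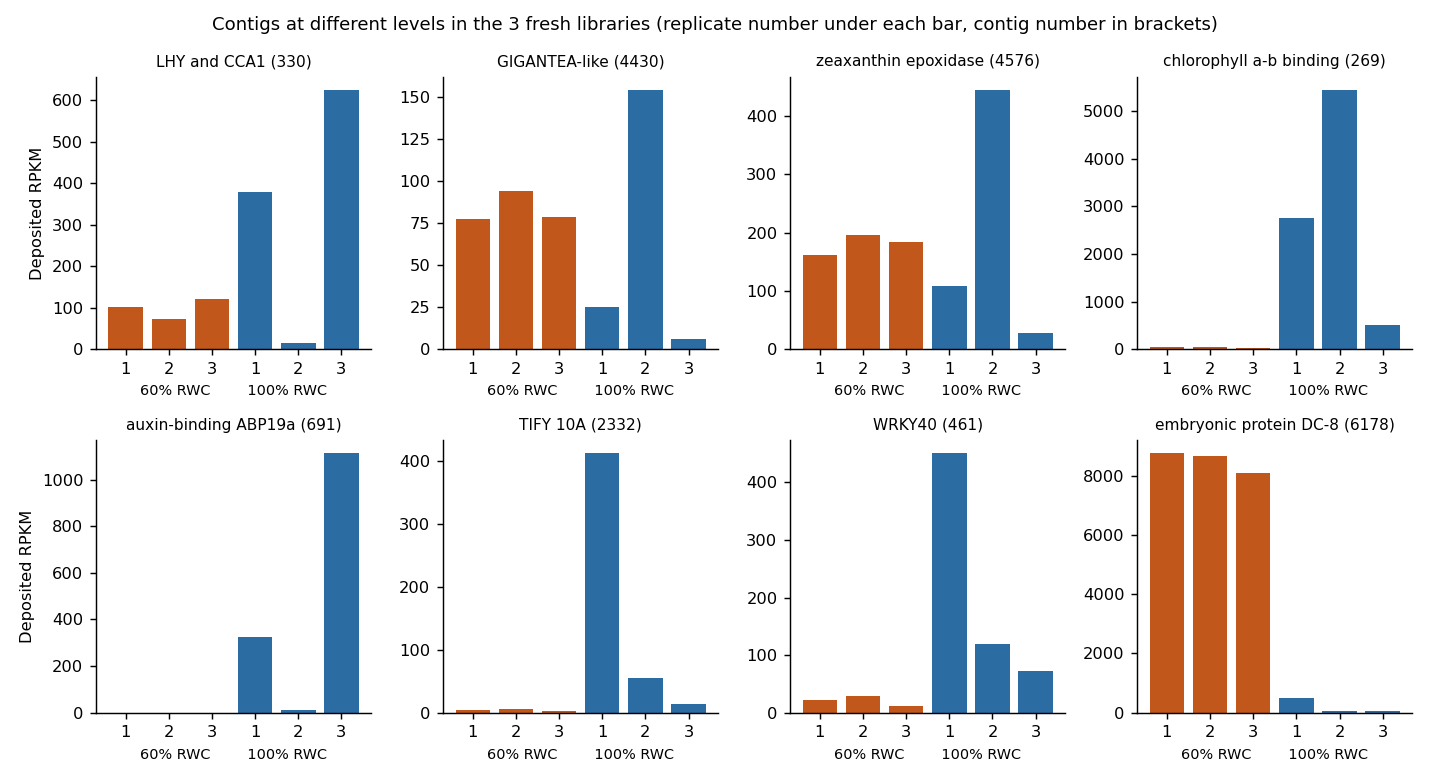
Deposited RPKM of 8 contigs in each library, with 60% RWC on the left (orange) and 100% RWC on the right (blue) of each panel, 1 bar per library. Fresh replicate 2 is low for LHY and high for GIGANTEA (16.3 and 154 RPKM), and fresh replicate 1 is high for TIFY 10A (412 RPKM), while the 3 libraries at 60% RWC lie close together.

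Of the contigs of marker lists, those of leaf mesophyll (Rubisco small chain and chlorophyll a-b binding proteins) took 0.399, 0.409 and 0.452% of reads at 60% RWC and 2.32, 3.03 and 1.81% in fresh leaves. Both sets of leaves therefore held mesophyll transcripts, at a lower share at 60% RWC. Markers of roots were near 0 in every library (0.000471 to 0.00056% at 60% RWC and 0.000575 to 0.00159% in fresh leaves), and those of guard cells took under 0.002% in each. Vascular markers took 0.0291, 0.0292 and 0.0253% of reads at 60% RWC and 0.0505, 0.0414 and 0.0434% in fresh leaves, and epidermis and cuticle markers 0.356, 0.331 and 0.368% of reads at 60% RWC and 0.327, 0.260 and 0.282% in fresh leaves. In the bulk of a leaf, fewer cells of a type and less RNA per cell cannot be told apart.

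The leaf transcriptome at 60% RWC differed from that of fresh leaves in both directions. The quasi-likelihood test of edgeR, adjusted by Benjamini-Hochberg at a threshold of 0.05, called 4450 of 44634 tested contigs higher at 60% RWC (9.97%) and 7316 lower (16.4%). Of the contigs that rose, 3690 rose at least 2-fold, 1813 at least 4-fold and 723 at least 16-fold, and of those that fell, 6967 fell at least 2-fold, 4424 at least 4-fold and 1015 at least 16-fold. The median log2 fold of all tested contigs was -0.05. Counts of called contigs in every list below are to be read beside these shares of all tested contigs, 9.97% higher and 16.4% lower. The test used 1 estimate of the spread per contig for both groups, although the common coefficient of variation was 0.142 at 60% RWC and 0.526 in fresh leaves. The SE and adjusted p values below rest on that shared estimate, and its part in the calls was not tested. The test rested on all 3 libraries at 60% RWC. Without 1 of them it called 1991, 2251 or 2146 contigs higher and 2637, 2975 or 2872 lower, and without fresh replicate 2 it called 7352 higher and 9566 lower. In what follows, square brackets after counts give the contigs called higher and lower without 1 of the 60% libraries, as a range over the 3 fits, where a count then moved by more than 1.5 times. Where a count of 0 in a list stands with no other value, edgeR at an unadjusted p under 0.05, DESeq2's test and limma voom with sample weights gave 0 as well. Square brackets after an adjusted p give its range over the same 3 fits where the call was lost in all of them. The RPKM values of both groups did not overlap in 45.4% of tested contigs. Simulated counts had the same depth, 1 common spread per group and changed contigs drawn from above the median level. In them the test called 42 of 66 contigs changed 8-fold but 12 of 67 changed 4-fold and 0 of 67 changed 2-fold. In the data some contigs under 2-fold were called, so these rates are not those of the data. A contig that was not called is not shown to be unchanged, and the sizes above are those of called contigs alone.

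Some transcripts were detected in a single state. No read in fresh leaves and at least 10 reads in each 60% library were found for 26 contigs, of which 7 had no description, and the opposite pattern for 39 contigs, of which 5 had none. A retrotransposon Pol polyprotein contig (Cp_V2_contig_47856) with 1681 reads at 60% RWC and 0 reads in fresh leaves was at least 183-fold higher, with 3 counts per library as the floor. A sodium/hydrogen exchanger 4 contig (Cp_V2_contig_47446), an antiporter of sodium and protons, with 1400 reads at 60% RWC and 0 reads in fresh leaves, was at least 152-fold higher by the same rule. In the other direction a galactinol-sucrose galactosyltransferase contig (Cp_V2_contig_10315) had 0 reads at 60% RWC and 556 reads in fresh leaves, at least 63.1-fold lower.

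**Figure D2:**
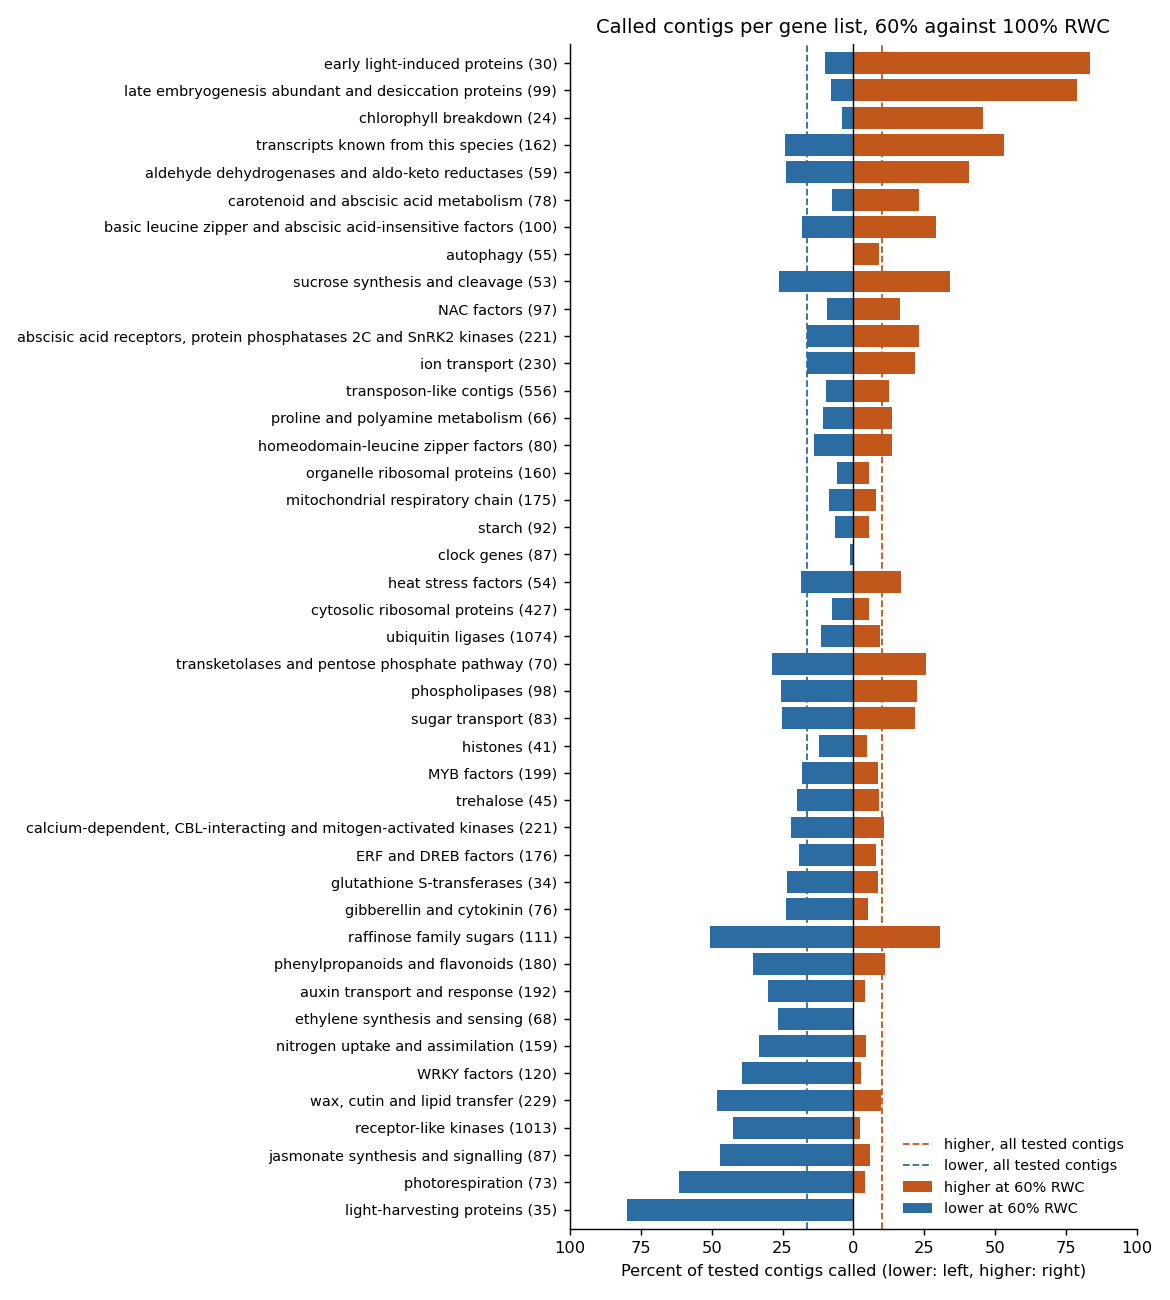
Percent of the tested contigs of each gene list that were called lower (blue, to the left) or higher (orange, to the right) at 60% RWC, with the number tested in brackets and dashed lines at the percentages of all tested contigs, 16.4 and 9.97. Early light-induced and LEA proteins lie at the top, and receptor-like kinases, jasmonate genes, photorespiration and light-harvesting proteins at the bottom.

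The most abundant transcript at 60% RWC was a desiccation-related protein (Cp_V2_contig_4317), with 55812, 72001 and 62005 RPKM at 60% RWC, against 1199, 238 and 451 in fresh leaves (log2 fold 6.66, SE 0.81, adjusted p = 0.00255). Contigs whose description or best hit names this species, most of them studied because drying raises them, took 8.07, 8.68 and 7.94% of reads at 60% RWC and 0.738, 0.507 and 0.930% in fresh leaves. In this list 86 of 162 tested contigs rose and 39 fell [82 and 22 to 24], which is no independent support for its direction. Other LEA-type transcripts rose to high levels. Dehydrin DHN3 (Cp_V2_contig_22485) had 12066, 13729.9 and 10282 RPKM at 60% RWC, against 167, 65.4 and 73.5 in fresh leaves (log2 fold 6.92, SE 0.60, adjusted p = 0.000813). Dehydrin 1 (Cp_V2_contig_15111) had 8251, 8966 and 8670.3 RPKM at 60% RWC, against 64.3, 45.7 and 78.1 in fresh leaves (log2 fold 7.18, SE 0.40, adjusted p = 0.000243). An LEA 6-like protein (Cp_V2_contig_45054) had 2029.7, 2061 and 2032 RPKM at 60% RWC, against 1.32, 1.94 and 0.887 in fresh leaves (log2 fold 10.60, SE 0.38, adjusted p = 0.000109). In each of these 4 contigs every library at 60% RWC was above every fresh library. The list of LEA and desiccation proteins had 78 contigs higher and 8 lower of 99 tested [67 to 71 and 3]. Early light-induced proteins, which bind pigments of the thylakoid under excess light, had 25 contigs higher and 3 lower of 30 tested [25 and 0]. Among these, Cp_V2_contig_46725 had 5725 reads at 60% RWC and 3 reads in fresh leaves, a ratio of 1883 (95% counting interval 644 to 9132).

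Abundance before drying set other dehydrins apart. One dehydrin (Cp_V2_contig_802†) had 3280.2, 2964 and 2613 RPKM at 60% RWC, against 2566, 1651 and 2926 in fresh leaves, and was not called (log2 fold 0.38, SE 0.33, adjusted p = 0.431). Another (Cp_V2_contig_3217†) had 4349.6, 5074 and 4774 RPKM at 60% RWC, against 68.5, 46.6 and 109 in fresh leaves (log2 fold 6.06, SE 0.46, adjusted p = 0.00057). The levels of both dehydrins at 60% RWC were within a factor of 2 of each other, while their fresh levels were not. An undescribed contig, Cp_V2_contig_26669†, had 16820.0, 16658 and 15157 RPKM at 60% RWC, against 3.29, 10.55 and 4.02 in fresh leaves (log2 fold 11.55, SE 0.61, adjusted p = 0.000217). It stood among the most abundant transcripts of partly dried leaves, with no name given by the annotation. Another undescribed contig (Cp_V2_contig_6504†) had 8736, 8593 and 6999 RPKM at 60% RWC, against 462, 920.2 and 629 in fresh leaves (log2 fold 3.72, SE 0.30, adjusted p = 0.000661).

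**Figure D3:**
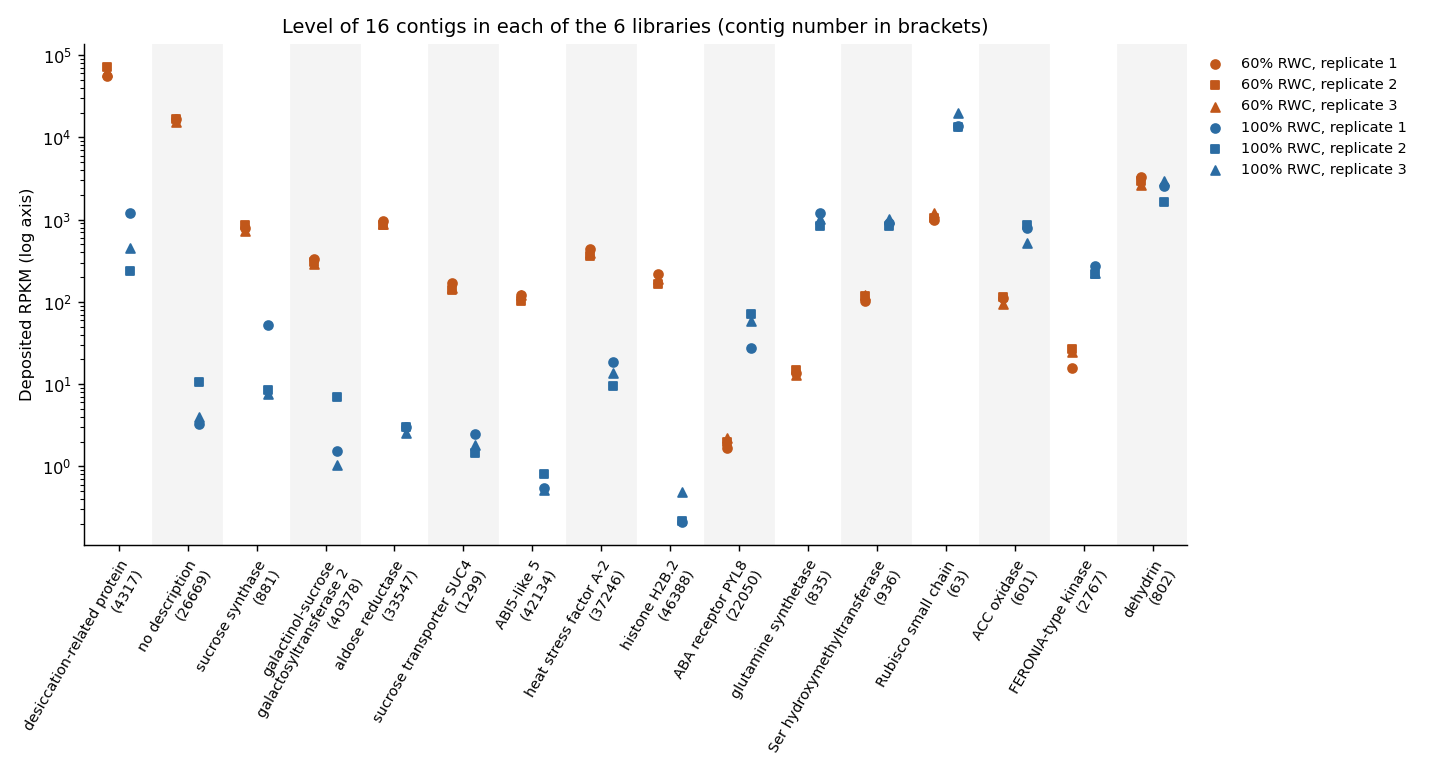
Deposited RPKM (log axis) of 16 contigs named in the text, with the 3 libraries at 60% RWC on the left (orange) and the 3 fresh libraries on the right (blue) of each column. The groups do not overlap in 15 contigs, from the desiccation-related protein at 55812 to 72001 RPKM at 60% RWC to the FERONIA-type kinase, and they overlap in the dehydrin Cp_V2_contig_802.

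Sucrose metabolism changed by enzyme type. Sucrose synthases, which cleave or make sucrose reversibly with UDP, had 8 contigs higher and 0 lower of 14 tested (1 lower at an unadjusted p under 0.05, 1 by DESeq2 and 0 by limma). Soluble and vacuolar invertases, which split sucrose into glucose and fructose, had 0 contigs higher and 7 lower of 7 tested. The sucrose synthase contig at the highest level (Cp_V2_contig_881) had 787, 852 and 729 RPKM at 60% RWC, against 52.7, 8.55 and 7.63 in fresh leaves (log2 fold 5.10, SE 0.95, adjusted p = 0.0108). Another with the largest rise (Cp_V2_contig_21454) had 156, 189 and 164 RPKM at 60% RWC, against 5.64, 2.16 and 0.787 in fresh leaves (log2 fold 5.91, SE 0.76, adjusted p = 0.00306). A nearly full-length sucrose synthase 2 contig of 2605 bases (Cp_V2_contig_16706†) had 185, 167 and 146 RPKM at 60% RWC, against 9.37, 17.4 and 19.97 in fresh leaves (log2 fold 3.52, SE 0.32, adjusted p = 0.000933). Every library at 60% RWC was above every fresh library in these 3 contigs. In the opposite direction a vacuolar invertase contig (Cp_V2_contig_10083) had 0.141, 0 and 0.914 RPKM at 60% RWC, against 35.1, 20.4 and 62.0 in fresh leaves (log2 fold -6.66, SE 0.93, adjusted p = 0.00408). A beta-fructofuranosidase of the soluble type (Cp_V2_contig_2788†) had 15.8, 13.8 and 11.9 RPKM at 60% RWC, against 132, 44.9 and 174 in fresh leaves (log2 fold -3.03, SE 0.55, adjusted p = 0.0102 [0.0544 to 0.0596]). In both the fresh libraries were all higher. Insoluble invertases, bound to the cell wall, had 4 contigs higher and 0 lower of 10 tested [0 to 2 and 0]. Sucrose-phosphate synthases and phosphatases, which make sucrose, had 3 contigs higher and 0 lower of 11 tested [0 to 1 and 0] (0 higher without fresh replicate 1, 1 lower without fresh replicate 2, 1 lower at an unadjusted p under 0.05, 1 by DESeq2 and 0 by limma). Over the whole list, 18 of 53 tested contigs rose and 14 fell [8 to 10 and 8], with a median log2 fold of 0.30. The list took 0.408, 0.402 and 0.362% of reads at 60% RWC and 0.178, 0.108 and 0.161% in fresh leaves.

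The raffinose family of sugars, built by adding galactose from galactinol to sucrose, was split between contigs of the same name. Galactinol-sucrose galactosyltransferases, the enzymes of raffinose synthesis, had 17 contigs higher and 47 lower of 73 tested. The contig with the largest rise (Cp_V2_contig_45182) had 76.4, 77.3 and 79.5 RPKM at 60% RWC, against 0.760, 0.156 and 0.178 in fresh leaves (log2 fold 7.70, SE 0.55, adjusted p = 0.000489). One at a higher level (Cp_V2_contig_40378†) had 335, 306 and 289 RPKM at 60% RWC, against 1.55, 6.99 and 1.03 in fresh leaves (log2 fold 6.77, SE 0.77, adjusted p = 0.00201). Stachyose synthases, which add a further galactose, had 9 contigs higher and 1 lower of 10 tested [2 and 1]. The single contig of these that fell (Cp_V2_contig_7486†) had 11.4, 11.8 and 11.7 RPKM at 60% RWC, against 80.0, 102 and 92.4 in fresh leaves (log2 fold -2.88, SE 0.20, adjusted p = 0.000364). Enzymes of the same name thus stood on both sides of the comparison. Galactinol synthases, which supply the galactose donor, had 1 contig higher and 6 lower of 14 tested [0 and 0] (5 higher and 2 lower without fresh replicate 1, 2 higher without fresh replicate 2, 3 lower without fresh replicate 3). The most abundant of them (Cp_V2_contig_423) had 2679, 2492 and 2733 RPKM at 60% RWC, against 1131, 1100.1 and 1323 in fresh leaves (log2 fold 1.24, SE 0.24, adjusted p = 0.0117 [0.059 to 0.0694]). A second galactinol synthase 1 contig, Cp_V2_contig_1959†, was at 105, 89.1 and 112 RPKM at 60% RWC, against 702, 141 and 1833 in fresh leaves (log2 fold -3.08, SE 0.87, adjusted p = 0.0425 [0.139 to 0.144], but 0.0662 without fresh replicate 1 and 0.0721 without fresh replicate 3), with fresh replicate 2 close to the 60% libraries. Alpha-galactosidase 3 takes galactose off such sugars. Contig Cp_V2_contig_12735† had 324, 265 and 201 RPKM at 60% RWC, against 7.23, 7.81 and 10.3 in fresh leaves (log2 fold 5.05, SE 0.33, adjusted p = 0.00035). The list as a whole had 34 contigs higher and 56 lower of 111 tested [18 to 20 and 37 to 40] and a median log2 fold of -1.58. It took 0.732, 0.659 and 0.696% of reads at 60% RWC and 0.631, 0.426 and 1.13% in fresh leaves, so the groups overlapped in their share of reads although most of its contigs were called.

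Transketolase contigs split within the family. These enzymes move carbon units between sugar phosphates in the Calvin cycle and the pentose phosphate pathway, and in this species some of them have been linked to the metabolism of octulose. Of 26 tested transketolase contigs, 8 rose, 14 fell and 4 were not called [8 and 6 to 7]. The most abundant contig (Cp_V2_contig_1735, 2136 bases) had 692, 624 and 798 RPKM at 60% RWC, against 506, 469 and 1019 in fresh leaves, and was not called (log2 fold 0.16, SE 0.37, adjusted p = 0.77). Cp_V2_contig_30911 had 54.0, 62.7 and 48.5 RPKM at 60% RWC, against 0.157, 0.323 and 0.184 in fresh leaves (log2 fold 7.93, SE 0.33, adjusted p = 0.000146). A longer contig of 2067 bases (Cp_V2_contig_31210†) had 195, 197 and 159.8 RPKM at 60% RWC, against 2.12, 0.688 and 0.982 in fresh leaves (log2 fold 7.22, SE 0.61, adjusted p = 0.000756). Fresh leaves held at most 2.12 RPKM of either. Other contigs were nearly absent at 60% RWC. Cp_V2_contig_14837 had 0.515, 0.451 and 0.139 RPKM at 60% RWC, against 131, 31.5 and 113 in fresh leaves (log2 fold -7.86, SE 0.86, adjusted p = 0.00177). Cp_V2_contig_1819† had 0.997, 1.88 and 0.746 RPKM at 60% RWC, against 327, 62.4 and 222 in fresh leaves (log2 fold -7.37, SE 0.88, adjusted p = 0.00237). Cp_V2_contig_951† had 7.23, 8.49 and 7.61 RPKM at 60% RWC, against 198, 107 and 753 in fresh leaves (log2 fold -5.43, SE 0.84, adjusted p = 0.00577). Groups overlapped in the most abundant contig and were apart in the other 5. In the pentose phosphate pathway, 6-phosphogluconolactonases had 9 contigs higher and 0 lower of 12 tested. A probable 6-phosphogluconolactonase 4 (Cp_V2_contig_28491†) had 152, 142 and 183 RPKM at 60% RWC, against 8.84, 9.36 and 10.7 in fresh leaves (log2 fold 4.13, SE 0.23, adjusted p = 0.000245). The whole list had 18 contigs higher and 20 lower of 70 tested [17 and 7 to 8], and its share of reads overlapped between the states (0.473, 0.450 and 0.504% of reads at 60% RWC and 0.416, 0.410 and 0.739% in fresh leaves).

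**Figure D4:**
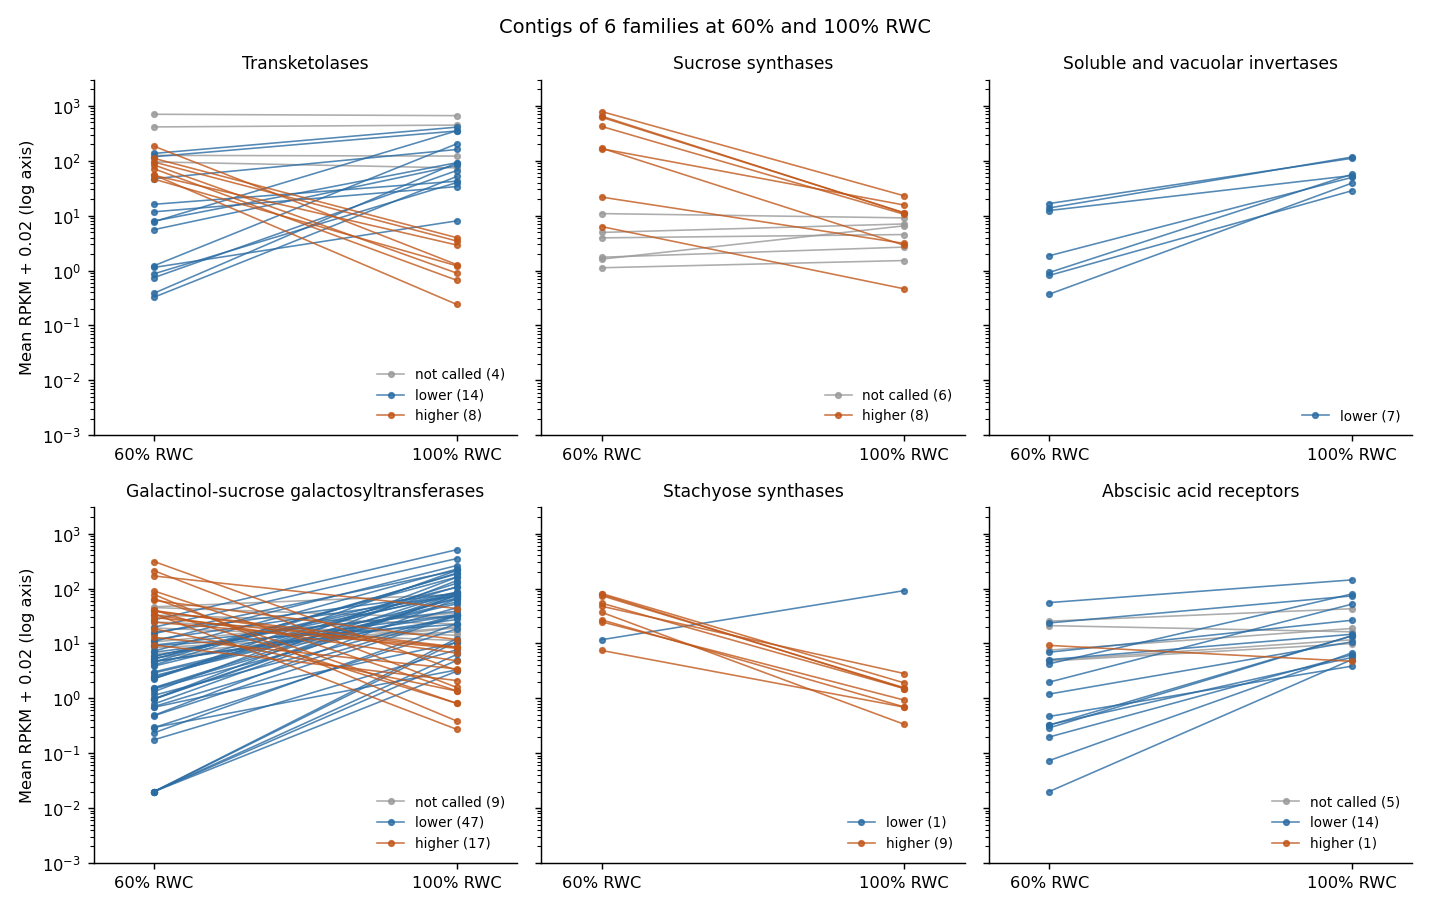
Mean RPKM plus 0.02 (log axis) of each tested contig of 6 enzyme or receptor families at 60% RWC (left) and 100% RWC (right), joined by a line and coloured by its call. Lines cross in transketolases (8 higher, 14 lower) and galactinol-sucrose galactosyltransferases (17 higher, 47 lower), while no sucrose synthase was called lower and no soluble or vacuolar invertase higher.

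Trehalose enzymes had 4 contigs higher and 9 lower of 45 tested [3 and 2 to 4] (7 higher without fresh replicate 1), shares close to those of all tested contigs. Starch enzymes had 5 contigs higher and 6 lower of 92 tested [1 to 3 and 3 to 4] (13 higher without fresh replicate 1, 27 higher and 18 lower without fresh replicate 2), shares below those of all tested contigs with all 6 libraries. Probable trehalose-phosphate phosphatase J makes trehalose from its phosphate. Contig Cp_V2_contig_33107 had 16.6, 12.9 and 17.2 RPKM at 60% RWC, against 1.77, 0.682 and 1.30 in fresh leaves (log2 fold 3.68, SE 0.44, adjusted p = 0.00236). Another contig of that name, Cp_V2_contig_7794, had 1.83, 1.18 and 1.19 RPKM at 60% RWC, against 25.8, 13.7 and 11.6 in fresh leaves (log2 fold -3.54, SE 0.47, adjusted p = 0.00355). The gene family thus held changes in both directions. The large subunit of glucose-1-phosphate adenylyltransferase commits glucose to starch. Contig Cp_V2_contig_1078 had 14.6, 16.04 and 19.5 RPKM at 60% RWC, against 127, 97.4 and 208 in fresh leaves (log2 fold -3.03, SE 0.37, adjusted p = 0.00262). Beta-amylase 1 degrades starch. Contig Cp_V2_contig_792 had 143, 131 and 141 RPKM at 60% RWC, against 229.5, 99.2 and 336 in fresh leaves, and was not called (log2 fold -0.62, SE 0.46, adjusted p = 0.354, 0.00847 without fresh replicate 2). Sugar transporters had 18 contigs higher and 21 lower of 83 tested [13 and 7 to 9]. Their shares were 21.7% and 25.3%, against 9.97% and 16.4% of all tested contigs. Sucrose transporter SUC4 sits in the vacuole membrane in Arabidopsis. Contig Cp_V2_contig_1299 had 170.1, 139.7 and 146 RPKM at 60% RWC, against 2.45, 1.43 and 1.81 in fresh leaves (log2 fold 6.38, SE 0.38, adjusted p = 0.00028). A second SUC4 contig, Cp_V2_contig_1300†, had 226, 214 and 205 RPKM at 60% RWC, against 5.99, 2.17 and 6.04 in fresh leaves (log2 fold 5.55, SE 0.52, adjusted p = 0.00105). Monosaccharide-sensing protein 2 is a transporter of the vacuole membrane. Contig Cp_V2_contig_18569† had 223, 197 and 184 RPKM at 60% RWC, against 11.2, 4.94 and 20.6 in fresh leaves (log2 fold 4.09, SE 0.59, adjusted p = 0.0044). All 3 contigs were several times higher in every 60% library than in any fresh library. ERD6-like 7 (Cp_V2_contig_579), of a family of vacuolar sugar exporters, had 22.6, 26.8 and 23.5 RPKM at 60% RWC, against 582, 182 and 124 in fresh leaves (log2 fold -3.58, SE 0.69, adjusted p = 0.0119 [0.06 to 0.067]). The sugar exporter SWEET3 (Cp_V2_contig_16619) had 0.493, 0.822 and 0.609 RPKM at 60% RWC, against 15.5, 23.8 and 26.5 in fresh leaves (log2 fold -4.98, SE 0.33, adjusted p = 0.000352). In both exporters every fresh library was above the 60% libraries.

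Enzymes that remove aldehydes included some of the steepest rises. Of 8 tested aldose reductase contigs, NADPH-dependent enzymes that reduce sugars and toxic aldehydes, 7 rose and 0 fell, with and without each library. The most abundant (Cp_V2_contig_33547) had 961, 866 and 885 RPKM at 60% RWC, against 2.99, 2.98 and 2.55 in fresh leaves (log2 fold 8.40, SE 0.29, adjusted p = 0.000109). The one with the largest fold (Cp_V2_contig_38375) had 812, 801 and 603 RPKM at 60% RWC, against 1.09, 1.06 and 1.21 in fresh leaves (log2 fold 9.45, SE 0.34, adjusted p = 0.000109). No fresh library held 3 RPKM of either contig, and every 60% library held at least 603. Aldehyde dehydrogenases, which oxidise aldehydes to acids, were divided, with 12 contigs higher and 14 lower of 43 tested [10 and 6 to 7]. One described simply as aldehyde dehydrogenase (Cp_V2_contig_47375†) had 107, 114 and 98.6 RPKM at 60% RWC, against 0, 0.381 and 0.652 in fresh leaves (log2 fold 8.33, SE 0.61, adjusted p = 0.000504). Family 3 member F1 (Cp_V2_contig_6230) had 2.04, 3.87 and 1.79 RPKM at 60% RWC, against 44.3, 10.51 and 59.4 in fresh leaves (log2 fold -3.85, SE 0.75, adjusted p = 0.0127, but 0.0697 without 60% replicate 1 and 0.0673 without 60% replicate 3). Succinate-semialdehyde dehydrogenase is the last step of the breakdown of gamma-aminobutyrate. Contig Cp_V2_contig_4245† had 231, 237 and 243 RPKM at 60% RWC, against 26.5, 32.1 and 29.1 in fresh leaves (log2 fold 3.12, SE 0.20, adjusted p = 0.00035). The share of reads of the list was 0.451, 0.436 and 0.404% of reads at 60% RWC and 0.0739, 0.0984 and 0.0845% in fresh leaves, with no overlap between the states. Glutathione S-transferases, which couple glutathione to reactive compounds, had 3 contigs higher and 8 lower of 34 tested [2 to 3 and 3 to 5] (7 higher without fresh replicate 2). Their shares were 8.82% and 23.5%, against 9.97% and 16.4% of all tested contigs. The most abundant glutathione S-transferase (Cp_V2_contig_2532) had 123, 122 and 144 RPKM at 60% RWC, against 112, 262 and 166 in fresh leaves, not called (log2 fold -0.34, SE 0.27, adjusted p = 0.396). Proline and polyamine genes had 9 contigs higher and 7 lower of 66 tested [3 to 4 and 2] (3 lower without fresh replicate 1, 18 lower without fresh replicate 2). Shares in this list were 13.6% higher and 10.6% lower, with all 6 libraries. In that list proline transporter 1 (Cp_V2_contig_26513) had 43.6, 44.1 and 48.1 RPKM at 60% RWC, against 5.26, 7.30 and 5.25 in fresh leaves (log2 fold 3.03, SE 0.20, adjusted p = 0.000352).

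Carotenoids supply the precursor of ABA, and the genes of their metabolism and of ABA synthesis and breakdown had 18 contigs higher and 6 lower of 78 tested [11 to 12 and 1] (13 lower without fresh replicate 2). Beta-carotene hydroxylase makes zeaxanthin. Contig Cp_V2_contig_4674 had 55.4, 49.3 and 33.9 RPKM at 60% RWC, against 3.27, 1.43 and 0.491 in fresh leaves (log2 fold 4.77, SE 0.70, adjusted p = 0.00486). Phytoene synthase 2 is the entry to carotenoids. Contig Cp_V2_contig_10599 had 1.36, 1.18 and 1.13 RPKM at 60% RWC, against 28.4, 7.20 and 103 in fresh leaves (log2 fold -5.17, SE 1.02, adjusted p = 0.0131 [0.067 to 0.069]). Zeaxanthin epoxidase (Cp_V2_contig_4576) had 162, 197 and 183 RPKM at 60% RWC, against 109, 444 and 27.6 in fresh leaves, and was not called (log2 fold 0.08, SE 0.81, adjusted p = 0.949), with fresh libraries on both sides of the 60% libraries. The 9-cis-epoxycarotenoid dioxygenases, the limiting enzymes of ABA synthesis in many plants, had 1 contig higher and 0 lower of 9 tested [0 and 0] (7 higher without fresh replicate 1, 0 higher without fresh replicate 3). ABA 8'-hydroxylases, which break ABA down, had 4 contigs higher and 2 lower of 14 tested [2 and 0].

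In ABA sensing, more receptors were called lower than higher, while phosphatases were called in both directions. The difference between these groups was not tested. Receptors of the PYR/PYL family had 1 contig higher and 14 lower of 20 tested [0 and 8 to 9] (0 higher without fresh replicate 1, 0 higher without fresh replicate 2), with a median log2 fold of -2.39. PYL8-like Cp_V2_contig_22050 had 1.67, 1.95 and 2.23 RPKM at 60% RWC, against 27.1, 70.3 and 58.2 in fresh leaves (log2 fold -4.60, SE 0.37, adjusted p = 0.000676). PYL4-like Cp_V2_contig_12318† had 4.43, 5.18 and 3.09 RPKM at 60% RWC, against 41.7, 112 and 84.98 in fresh leaves (log2 fold -4.09, SE 0.40, adjusted p = 0.0012). The most abundant receptor contig, PYL8-like Cp_V2_contig_12664†, had 58.3, 51.8 and 55.9 RPKM at 60% RWC, against 113, 112 and 206 in fresh leaves (log2 fold -1.29, SE 0.31, adjusted p = 0.0246 [0.1 to 0.107]). Protein phosphatases 2C, of which group A members are held by these receptors, had 40 contigs higher and 21 lower of 181 tested [16 to 20 and 7 to 9] (34 lower without fresh replicate 2), in a list that also holds phosphatases outside that group. Protein phosphatase 2C 51 (Cp_V2_contig_28979) had 36.4, 19.9 and 28.1 RPKM at 60% RWC, against 0.713, 0.0917 and 0.105 in fresh leaves (log2 fold 6.50, SE 0.74, adjusted p = 0.00201). Protein phosphatase 2C 50 (Cp_V2_contig_15492†) had 118, 108 and 99.5 RPKM at 60% RWC, against 2.12, 1.48 and 1.82 in fresh leaves (log2 fold 5.98, SE 0.32, adjusted p = 0.000215). Protein phosphatase 2C 37 (Cp_V2_contig_39202†) had 126, 108 and 93.1 RPKM at 60% RWC, against 3.23, 3.32 and 4.21 in fresh leaves (log2 fold 5.01, SE 0.27, adjusted p = 0.000221). SnRK2 kinases had 3 contigs higher and 1 lower of 13 tested [1 and 0] (0 lower without fresh replicate 1, 2 lower without fresh replicate 2), and contigs named SnRK2 calcium sensor had 7 contigs higher and 0 lower of 7 tested. The most abundant kinase, SRK2I-like Cp_V2_contig_4637†, had 179, 180.4 and 177 RPKM at 60% RWC, against 113, 144 and 132 in fresh leaves, and was not called (log2 fold 0.56, SE 0.19, adjusted p = 0.0693, 0.0324 without fresh replicate 2). SRK2B (Cp_V2_contig_6337†) had 89.8, 82.0 and 91.4 RPKM at 60% RWC, against 46.1, 37.0 and 53.2 in fresh leaves (log2 fold 1.03, SE 0.25, adjusted p = 0.025 [0.0854 to 0.103]). Groups overlapped in none of these contigs that were called.

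Among transcription factors, counts in each family stand beside the 9.97% of all tested contigs that were higher and the 16.4% that were lower. Basic leucine zipper and ABA-insensitive factors, only some of which SnRK2 kinases activate, had 29 contigs higher and 18 lower of 100 tested [15 to 20 and 2 to 3]. Among them, contigs named ABI5-like had 13 contigs higher and 4 lower of 27 tested [6 to 7 and 1 to 2]. ABI5-like protein 5 Cp_V2_contig_42134 had 122, 103 and 119.8 RPKM at 60% RWC, against 0.541, 0.817 and 0.509 in fresh leaves (log2 fold 7.62, SE 0.28, adjusted p = 0.000109). ABI5-like protein 2 Cp_V2_contig_34533† had 69.1, 59.2 and 68.9 RPKM at 60% RWC, against 2.15, 1.70 and 1.75 in fresh leaves (log2 fold 5.21, SE 0.27, adjusted p = 0.000208). Both were at or under 2.15 RPKM in every fresh library. Heat stress factors had 9 contigs higher and 10 lower of 54 tested [8 and 2 to 3], or 16.7% and 18.5%. Without fresh replicate 1 or 2 the first count was 15 or 17, and without fresh replicate 3 the second was 16. Among them heat stress factor A-2, which drives chaperone genes, had 5 contigs higher and 0 lower of 10 tested (10 higher without fresh replicate 2). The HSFA2 contig Cp_V2_contig_37246 had 435, 358 and 387 RPKM at 60% RWC, against 18.8, 9.47 and 13.8 in fresh leaves (log2 fold 4.87, SE 0.39, adjusted p = 0.000661). Other contigs of that name were not called, such as Cp_V2_contig_7969† with 168, 139 and 191 RPKM at 60% RWC, against 55.3, 0.851 and 26.6 in fresh leaves (log2 fold 2.58, SE 1.13, adjusted p = 0.139, 0.0133 without fresh replicate 2). Fresh replicate 2 was far below the other fresh libraries in it. Homeodomain-leucine zipper factors, a family with roles in drought and in leaf growth, had 11 contigs higher and 11 lower of 80 tested [1 and 5 to 8] (24 lower without fresh replicate 2), shares near those of all tested contigs. ATHB-12 Cp_V2_contig_24807 had 320.1, 288 and 333 RPKM at 60% RWC, against 84.7, 8.52 and 41.2 in fresh leaves (log2 fold 2.81, SE 0.80, adjusted p = 0.0434 [0.108 to 0.119], but 0.0919 without fresh replicate 3). ATHB-13 Cp_V2_contig_43054 had 3.85, 3.40 and 3.05 RPKM at 60% RWC, against 12.7, 35.5 and 62.2 in fresh leaves (log2 fold -3.30, SE 0.56, adjusted p = 0.00807). NAC factors had 16 contigs higher and 9 lower of 97 tested [6 to 7 and 2 to 3] (15 lower without fresh replicate 3). In that family NAC104-like Cp_V2_contig_46174 had 70.3, 53.4 and 55.3 RPKM at 60% RWC, against 0.537, 0.158 and 2.97 in fresh leaves (log2 fold 5.70, SE 0.94, adjusted p = 0.00727). NAC90 (Cp_V2_contig_15969) had 4.19, 2.52 and 3.84 RPKM at 60% RWC, against 52.5, 20.7 and 32.4 in fresh leaves (log2 fold -3.27, SE 0.49, adjusted p = 0.00508). The most abundant contig, NAC72-like Cp_V2_contig_3794, had 477, 488 and 312 RPKM at 60% RWC, against 290.3, 25.1 and 18.6 in fresh leaves, not called (log2 fold 1.91, SE 1.09, adjusted p = 0.239, 0.000961 without fresh replicate 1). Fresh replicate 1 was close to the lowest 60% library in that contig.

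WRKY factors, regulators of defence and stress genes, had 3 contigs higher and 47 lower of 120 tested [0 and 21 to 24], with a median log2 fold of -1.57. These were 2.5% higher and 39.2% lower, against 9.97% and 16.4% of all tested contigs. The most abundant contig, WRKY40 Cp_V2_contig_461, had 21.8, 28.6 and 11.9 RPKM at 60% RWC, against 450.4, 119 and 72.7 in fresh leaves (log2 fold -3.35, SE 0.82, adjusted p = 0.0278 [0.0851 to 0.112]). WRKY40 Cp_V2_contig_788 had 1.10, 1.73 and 0.296 RPKM at 60% RWC, against 227, 51.4 and 17.2 in fresh leaves (log2 fold -6.55, SE 1.27, adjusted p = 0.0125 [0.0524 to 0.0684]). WRKY3 (Cp_V2_contig_12398), with the largest rise, had 18.5, 16.00 and 15.7 RPKM at 60% RWC, against 9.12, 6.29 and 5.602 in fresh leaves (log2 fold 1.32, SE 0.29, adjusted p = 0.0188 [0.0666 to 0.0837]). The share of reads of the family was 0.0758, 0.0761 and 0.0596% of reads at 60% RWC and 0.379, 0.210 and 0.151% in fresh leaves, and fresh replicate 1 was the highest. Ethylene response and dehydration-responsive element factors had 14 contigs higher and 34 lower of 176 tested [8 to 9 and 11 to 14], again shares near those of all tested contigs. Here RAP2-1 (Cp_V2_contig_26531) had 132, 118 and 136 RPKM at 60% RWC, against 4.17, 13.7 and 3.56 in fresh leaves (log2 fold 4.33, SE 0.52, adjusted p = 0.0024). The AP2/ERF and B3 domain-containing factor Cp_V2_contig_17303 had 0.387, 0.271 and 0.167 RPKM at 60% RWC, against 23.6, 14.4 and 25.3 in fresh leaves (log2 fold -6.13, SE 0.48, adjusted p = 0.000597). RAP2-12 is an oxygen-sensing factor in Arabidopsis. Contig Cp_V2_contig_18810 was at 129, 108 and 117 RPKM at 60% RWC, against 160.4, 118 and 102 in fresh leaves, not called (log2 fold -0.03, SE 0.27, adjusted p = 0.948), with a log2 fold of 0.28 without fresh replicate 1. MYB factors had 17 contigs higher and 36 lower of 199 tested [7 to 9 and 9 to 13] (57 lower without fresh replicate 2), also near the shares of all tested contigs. MYB44 is known to act in stomatal closure in Arabidopsis. Contigs of that name had 7 higher and 2 lower of 29 tested [2 to 3 and 0 to 1], with a median log2 fold of -0.68. Without fresh replicate 2 these counts were 4 and 10, and without fresh replicate 3 they were 5 and 4. The one named here is the contig with the largest rise. MYB44-like Cp_V2_contig_6689 had 126, 84.3 and 89.3 RPKM at 60% RWC, against 8.94, 7.93 and 0.905 in fresh leaves (log2 fold 4.15, SE 0.79, adjusted p = 0.0115, but 0.0504 without 60% replicate 1). MYB1R1-like Cp_V2_contig_1204 had 139, 126 and 131 RPKM at 60% RWC, against 113, 40.6 and 429 in fresh leaves, not called (log2 fold -0.50, SE 0.78, adjusted p = 0.67), with a log2 fold of 0.79 without fresh replicate 3. Groups overlapped in the contigs that were not called and in none of the other 6.

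Among signalling enzymes, calcium-dependent, CBL-interacting and mitogen-activated kinases had 24 contigs higher and 49 lower of 221 tested [6 to 9 and 11 to 12] (74 lower without fresh replicate 2). Their shares were 10.9% and 22.2%, against 9.97% and 16.4% of all tested contigs. CBL-interacting protein kinase 2-like Cp_V2_contig_23808 had 51.4, 42.7 and 46.3 RPKM at 60% RWC, against 2.86, 3.22 and 3.82 in fresh leaves (log2 fold 3.92, SE 0.23, adjusted p = 0.000272). The most abundant contig of the list, a CBL-interacting kinase (Cp_V2_contig_4370), had 93.8, 87.0 and 103 RPKM at 60% RWC, against 186, 57.4 and 328 in fresh leaves, and was not called (log2 fold -0.96, SE 0.60, adjusted p = 0.278, 0.00667 without fresh replicate 2). Phospholipases D, which release phosphatidic acid from membrane lipids, had 11 contigs higher and 6 lower of 38 tested [8 and 0 to 1] (3 lower without fresh replicate 1). Phospholipase D alpha 1 had 58.3, 52.3 and 58.4 RPKM at 60% RWC, against 3.07, 5.01 and 5.09 in fresh leaves in Cp_V2_contig_41055 (log2 fold 3.78, SE 0.25, adjusted p = 0.000352). A second contig of that name, Cp_V2_contig_17105†, had 272, 272 and 276 RPKM at 60% RWC, against 27.8, 31.2 and 41.9 in fresh leaves (log2 fold 3.12, SE 0.25, adjusted p = 0.000654). Phospholipase D delta (Cp_V2_contig_21807†) had 256, 256 and 237 RPKM at 60% RWC, against 24.8, 43.0 and 12.6 in fresh leaves (log2 fold 3.35, SE 0.43, adjusted p = 0.00313). Phospholipases A1, which cut membrane lipids at another bond, had 2 contigs higher and 6 lower of 16 tested [2 and 1]. A1-Igamma1 (Cp_V2_contig_7439) had 0.929, 0.839 and 0.959 RPKM at 60% RWC, against 56.8, 9.03 and 3.37 in fresh leaves (log2 fold -4.67, SE 1.15, adjusted p = 0.0281 [0.108 to 0.111]). A1-Igamma3 (Cp_V2_contig_266) had 67.4, 81.4 and 70.7 RPKM at 60% RWC, against 228, 145 and 369.7 in fresh leaves (log2 fold -1.69, SE 0.40, adjusted p = 0.0239 [0.0874 to 0.11]). The 60% and fresh libraries were apart in all 5 phospholipase contigs. Receptor-like kinases, the cell-surface sensors of growth and defence signals, had 24 contigs higher and 430 lower of 1013 tested [10 to 12 and 157 to 163] and a median log2 fold of -1.31. The share called lower was 42.4%, against 16.4% of all tested contigs, 61.6% of photorespiration contigs and 80% of light-harvesting contigs. FERONIA is the receptor of the list at the highest level. Contig Cp_V2_contig_2767 had 15.6, 27.0 and 24.3 RPKM at 60% RWC, against 273, 215 and 222 in fresh leaves (log2 fold -3.33, SE 0.32, adjusted p = 0.00108). An L-type lectin-domain receptor kinase (Cp_V2_contig_12097) had 0.0855, 0.200 and 0.554 RPKM at 60% RWC, against 29.4, 12.03 and 15.5 in fresh leaves (log2 fold -6.0, SE 0.72, adjusted p = 0.00246). A leucine-rich repeat receptor kinase with the largest rise (Cp_V2_contig_11979) had 18.02, 15.9 and 17.7 RPKM at 60% RWC, against 0.733, 0.174 and 0.596 in fresh leaves (log2 fold 5.14, SE 0.53, adjusted p = 0.00145).

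Each list of growth and defence hormones other than ABA had a smaller share called higher than the 9.97% of all tested contigs. Its share called lower was larger than their 16.4%, with all 6 libraries. Most contigs of the ethylene, auxin, and gibberellin and cytokinin lists were not called. Jasmonate genes, whose product is the wound hormone, had 5 contigs higher and 41 lower of 87 tested [4 and 6 to 13], with a median log2 fold of -2.75. TIFY 10A is a repressor in the jasmonate pathway. Contig Cp_V2_contig_2332 had 4.27, 5.28 and 1.96 RPKM at 60% RWC, against 412, 55.1 and 13.4 in fresh leaves (log2 fold -5.39, SE 1.39, adjusted p = 0.0321 [0.106 to 0.124]). Lipoxygenase 6 is an enzyme of fatty acid oxidation. Contig Cp_V2_contig_125 had 62.9, 108 and 74.98 RPKM at 60% RWC, against 611, 505 and 230.3 in fresh leaves (log2 fold -2.38, SE 0.44, adjusted p = 0.0108, but 0.0637 without 60% replicate 1 and 0.0633 without 60% replicate 3). A probable 9S-lipoxygenase 5 (Cp_V2_contig_43995) had 31.0, 30.7 and 38.6 RPKM at 60% RWC, against 1.34, 2.75 and 4.31 in fresh leaves (log2 fold 3.68, SE 0.41, adjusted p = 0.00184). All 5 contigs called higher in the list were lipoxygenases, which had 5 higher and 17 lower of 26 tested [4 and 3 to 9]. The list takes in lipoxygenases by name, and their part in jasmonate synthesis was not tested. The jasmonate share of reads, highest in fresh replicate 1, was above the 60% libraries in all 3 fresh libraries. In ethylene synthesis and sensing 0 of 68 tested contigs rose and 18 fell [0 and 5 to 6] (11 lower without fresh replicate 1, 5 higher without fresh replicate 2, 1 higher without fresh replicate 3, 1 higher at an unadjusted p under 0.05, 1 by DESeq2 and 0 by limma). ACC oxidase is the enzyme that releases ethylene. Contig Cp_V2_contig_601 had 113, 113 and 94.2 RPKM at 60% RWC, against 799.9, 864 and 522 in fresh leaves (log2 fold -2.68, SE 0.28, adjusted p = 0.00151). Auxin genes had 8 contigs higher and 58 lower of 192 tested [2 to 5 and 16 to 22]. Auxin-binding protein ABP19a (Cp_V2_contig_691) had 0.405, 0.709 and 0.656 RPKM at 60% RWC, against 323, 10.6 and 1112 in fresh leaves (log2 fold -9.60, SE 1.84, adjusted p = 0.0119 [0.0618 to 0.0662]). Auxin-induced protein 22D (Cp_V2_contig_13408) had 141, 148 and 143 RPKM at 60% RWC, against 29.7, 42.1 and 21.6 in fresh leaves (log2 fold 2.32, SE 0.27, adjusted p = 0.00199). The auxin-repressed 12.5 kDa protein (Cp_V2_contig_36398) had 438, 429.5 and 428 RPKM at 60% RWC, against 30.7, 364 and 51.3 in fresh leaves, and was not called (log2 fold 1.75, SE 0.83, adjusted p = 0.167, 0.000565 without fresh replicate 2), with fresh replicate 2 close to the 60% libraries. Gibberellin and cytokinin genes had 4 contigs higher and 18 lower of 76 tested [2 and 2 to 4] (7 higher without fresh replicate 3). The response regulator ARR5 (Cp_V2_contig_23780), induced by cytokinin in Arabidopsis, had 2.77, 2.43 and 2.00 RPKM at 60% RWC, against 14.0, 16.9 and 66.2 in fresh leaves (log2 fold -3.66, SE 0.70, adjusted p = 0.0118 [0.0593 to 0.0642]). Cytokinin dehydrogenase 7 breaks cytokinin down. Contig Cp_V2_contig_29109 had 20.1, 17.4 and 20.6 RPKM at 60% RWC, against 6.52, 9.21 and 7.80 in fresh leaves (log2 fold 1.41, SE 0.19, adjusted p = 0.00377).

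In photosynthesis and photorespiration more contigs of both lists were called lower than higher. Contigs named here for Rubisco and electron transport are single contigs, with no list behind them. Most of the contigs with the largest falls in mean RPKM belonged here. Rubisco is the enzyme that fixes carbon dioxide. Its small chain (Cp_V2_contig_63) had 1001, 1045 and 1212 RPKM at 60% RWC, against 13757, 13492 and 19775 in fresh leaves (log2 fold -3.77, SE 0.31, adjusted p = 0.000661). Rubisco activase keeps that enzyme open. Contig Cp_V2_contig_616 had 347, 294 and 382 RPKM at 60% RWC, against 5527, 2108 and 8875 in fresh leaves (log2 fold -3.96, SE 0.60, adjusted p = 0.00543). Chlorophyll a-b binding protein 151 (Cp_V2_contig_269), of the light-harvesting antenna, had 47.8, 40.8 and 25.9 RPKM at 60% RWC, against 2745, 5437 and 509 in fresh leaves (log2 fold -6.10, SE 0.90, adjusted p = 0.00498). In all 3 contigs the fresh libraries were higher than every 60% library. Light-harvesting proteins had 0 contigs higher and 28 lower of 35 tested [0 and 13 to 17]. One of the most abundant of them, the LHCII type 1 contig Cp_V2_contig_172, had 2512, 2416 and 2574 RPKM at 60% RWC, against 3737, 5960.4 and 953 in fresh leaves, and was not called (log2 fold -0.38, SE 0.57, adjusted p = 0.652, 0.0314 without fresh replicate 3). Fresh replicate 3 was below the 60% libraries in Cp_V2_contig_172 and fresh replicates 1 and 2 above them. Plastocyanin is the copper protein of the electron transport chain. Contig Cp_V2_contig_709 had 571, 636 and 662 RPKM at 60% RWC, against 2841, 3535 and 4431 in fresh leaves (log2 fold -2.44, SE 0.26, adjusted p = 0.00154). Oxygen-evolving enhancer protein 1 (Cp_V2_contig_1113) had 691, 655 and 803 RPKM at 60% RWC, against 2364, 3118 and 2455 in fresh leaves (log2 fold -1.78, SE 0.22, adjusted p = 0.00249). Photorespiration, which recovers the product of Rubisco's reaction with oxygen, had 3 contigs higher and 45 lower of 73 tested [1 and 27 to 28] (6 higher without fresh replicate 2), with a median log2 fold of -2.34. Mitochondrial serine hydroxymethyltransferase (Cp_V2_contig_936) had 101, 116 and 119 RPKM at 60% RWC, against 899, 824 and 1025 in fresh leaves (log2 fold -2.94, SE 0.25, adjusted p = 0.000707). Aminomethyltransferase (Cp_V2_contig_2064) of the glycine cleavage complex had 1.20, 2.04 and 2.19 RPKM at 60% RWC, against 139.5, 58.9 and 213 in fresh leaves (log2 fold -6.19, SE 0.65, adjusted p = 0.00153), with 45.5% of its reads shared with other contigs, so that its own level is uncertain. Its partner in that complex, H protein 2 (Cp_V2_contig_41490), went the other way, with 27.6, 27.9 and 27.2 RPKM at 60% RWC, against 6.36, 10.1 and 8.36 in fresh leaves (log2 fold 1.84, SE 0.21, adjusted p = 0.00197). The pathway took 0.146, 0.147 and 0.161% of reads at 60% RWC and 0.824, 0.511 and 1.25% in fresh leaves.

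Nitrogen uptake and assimilation had 7 contigs higher and 53 lower of 159 tested [4 to 5 and 22 to 23] (13 higher without fresh replicate 2, 13 higher without fresh replicate 3). Glutamine synthetases, which bind ammonia into glutamine, had 0 contigs higher and 7 lower of 9 tested. The most abundant in fresh leaves (Cp_V2_contig_835) had 13.6, 14.97 and 12.7 RPKM at 60% RWC, against 1207, 825 and 1025 in fresh leaves (log2 fold -6.14, SE 0.35, adjusted p = 0.000247). The chloroplast leaf isozyme (Cp_V2_contig_1931†) had 16.2, 18.7 and 23.1 RPKM at 60% RWC, against 608, 305 and 1086 in fresh leaves (log2 fold -5.05, SE 0.58, adjusted p = 0.00209). An abundant member was not called. Glutamine synthetase Cp_V2_contig_2002†, the contig of the family at the highest level at 60% RWC, had 200.1, 171 and 206 RPKM at 60% RWC, against 215, 264 and 421 in fresh leaves, and was not called (log2 fold -0.55, SE 0.30, adjusted p = 0.216). Ammonium transporters had 0 contigs higher and 13 lower of 19 tested [0 and 4 to 6] (1 higher without fresh replicate 2, 1 higher at an unadjusted p under 0.05, 1 by DESeq2 and 0 by limma). Ammonium transporter 1 member 2 (Cp_V2_contig_80) had 0.620, 0.724 and 0.446 RPKM at 60% RWC, against 54.5, 4.81 and 163 in fresh leaves (log2 fold -6.90, SE 1.34, adjusted p = 0.0126 [0.0626 to 0.0677]). Asparagine synthetase moves the nitrogen of glutamine onto asparagine. Contigs of that name had 1 higher and 0 lower of 7 tested, with a median log2 fold of -0.41 (1 lower at an unadjusted p under 0.05, 0 by DESeq2 and 0 by limma). The 1 called higher is named here. Contig Cp_V2_contig_20580† had 573, 439 and 440.3 RPKM at 60% RWC, against 19.4, 36.4 and 46.4 in fresh leaves (log2 fold 3.94, SE 0.37, adjusted p = 0.00104). A nitrate reductase contig (Cp_V2_contig_44452) had 31.0, 18.7 and 31.6 RPKM at 60% RWC, against 0.852, 0.109 and 0.5001 in fresh leaves (log2 fold 5.81, SE 0.63, adjusted p = 0.00174). The 60% and fresh libraries were apart in all 6 of these contigs, Cp_V2_contig_2002† included.

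**Figure D5:**
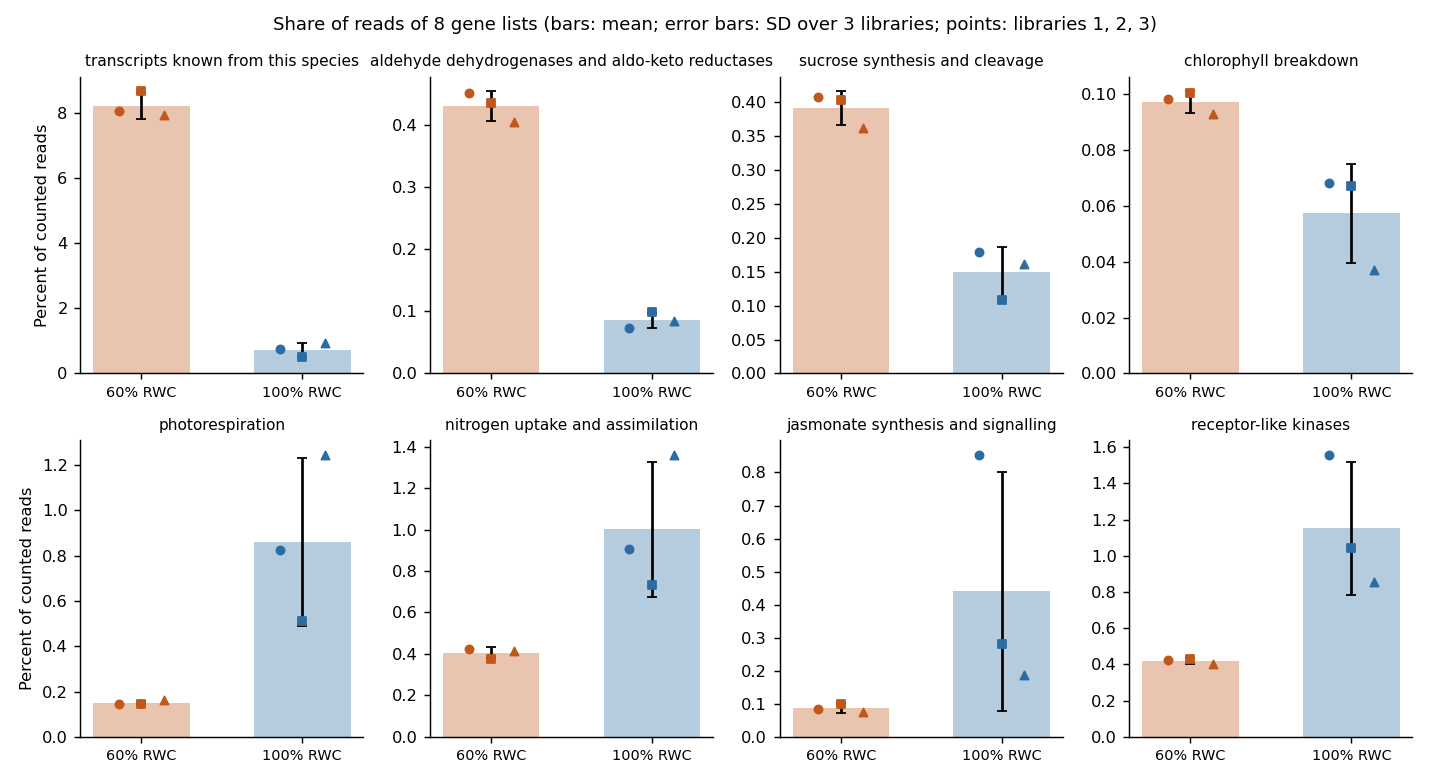
Percent of counted reads of 8 gene lists at 60% RWC (left, orange) and 100% RWC (right, blue), with bars for the mean, error bars for the SD over 3 libraries and a point for each library. The transcripts known from this species took 7.94 to 8.68% at 60% RWC and 0.507 to 0.93% in fresh leaves, and jasmonate genes were highest in fresh replicate 1 (0.854%).

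Genes of chlorophyll breakdown rose more often than they fell, with 11 contigs higher and 1 lower of 24 tested [3 to 4 and 0] (2 lower without fresh replicate 2, 2 lower without fresh replicate 3). Their shares were 45.8% and 4.17%, against 9.97% and 16.4% of all tested contigs. Pheophorbide a oxygenase opens the chlorophyll ring. Contig Cp_V2_contig_215 had 186, 201 and 185 RPKM at 60% RWC, against 57.7, 88.6 and 53.2 in fresh leaves (log2 fold 1.63, SE 0.24, adjusted p = 0.00434). STAY-GREEN in other plants starts chlorophyll loss by removing magnesium. Contig Cp_V2_contig_15363† of this name had 100.0, 78.2 and 74.1 RPKM at 60% RWC, against 31.3, 9.26 and 9.80 in fresh leaves (log2 fold 2.35, SE 0.58, adjusted p = 0.0284 [0.0803 to 0.0987], but 0.0538 without fresh replicate 3). A second STAY-GREEN contig, Cp_V2_contig_25829, had 38.4, 27.9 and 28.4 RPKM at 60% RWC, against 7.25, 1.57 and 0.896 in fresh leaves (log2 fold 3.29, SE 0.77, adjusted p = 0.0231 [0.0715 to 0.0852]). Fresh replicate 1 was the highest fresh library in both. STAY-GREEN LIKE (Cp_V2_contig_1411) had 13.6, 14.7 and 13.5 RPKM at 60% RWC, against 62.9, 34.5 and 114 in fresh leaves (log2 fold -2.27, SE 0.47, adjusted p = 0.0156 [0.0707 to 0.0783]). No STAY-GREEN contig was called higher without 1 of the 60% libraries, whichever was left out. The list share was 0.0983, 0.1004 and 0.0930% of reads at 60% RWC and 0.0681, 0.0672 and 0.0370% in fresh leaves.

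Wax, cutin and lipid-transfer genes, which build the surface layer of the leaf, had 22 contigs higher and 110 lower of 229 tested [16 to 17 and 55 to 62]. They took 0.433, 0.416 and 0.450% of reads at 60% RWC and 0.650, 0.400 and 0.423% in fresh leaves, so the groups overlapped. Markers of the epidermis, given above, include lipid-transfer and cuticle genes, so they are not a separate measure beside this list. Those markers took a larger share at 60% RWC, but had 17 contigs higher and 49 lower of 124 tested [15 to 16 and 24 to 29]. Their part in the counts of this list was not tested. A GDSL esterase (Cp_V2_contig_938), of a class of lipid-cutting enzymes, had 0.115, 0.135 and 0.0624 RPKM at 60% RWC, against 64.8, 15.1 and 49.2 in fresh leaves (log2 fold -8.57, SE 0.86, adjusted p = 0.00134). A lipid-transfer protein 2-like contig (Cp_V2_contig_26781) had 691, 551 and 676 RPKM at 60% RWC, against 2.06, 1.96 and 1.16 in fresh leaves (log2 fold 8.61, SE 0.38, adjusted p = 0.000157). The lipid-transfer protein at the highest level (Cp_V2_contig_3151) had 920.4, 849 and 918 RPKM at 60% RWC, against 721, 745 and 588 in fresh leaves, and was not called (log2 fold 0.48, SE 0.21, adjusted p = 0.146). Phenylpropanoid and flavonoid genes had 20 contigs higher and 64 lower of 180 tested [10 to 13 and 16 to 19]. They took 0.225, 0.226 and 0.251% of reads at 60% RWC and 1.07, 0.355 and 0.409% in fresh leaves. Anthocyanidin 3-O-glucosyltransferase 2 adds sugar to anthocyanin pigments. Contig Cp_V2_contig_17851 had 1.00, 0.835 and 0.309 RPKM at 60% RWC, against 16.1, 15.4 and 51.4 in fresh leaves (log2 fold -5.17, SE 0.72, adjusted p = 0.00412). Trans-cinnamate 4-monooxygenase is an early enzyme of the pathway. Contig Cp_V2_contig_639 had 80.5, 69.8 and 108 RPKM at 60% RWC, against 843, 148 and 272 in fresh leaves, and was not called (log2 fold -2.29, SE 0.71, adjusted p = 0.0559, 0.0118 without fresh replicate 2).

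Several contigs for transport across the vacuole membrane were higher at 60% RWC. Gamma-tonoplast intrinsic protein 3 is a water channel of that membrane. Contig Cp_V2_contig_1109 had 12299, 12384 and 12619.5 RPKM at 60% RWC, against 591, 381 and 517 in fresh leaves (log2 fold 4.71, SE 0.35, adjusted p = 0.000504). Subunits of the V-type proton ATPase, the pump that drives vacuolar transport, had 30 contigs higher and 5 lower of 77 tested [10 to 13 and 1] (8 lower without fresh replicate 3). Subunit E (Cp_V2_contig_4408) had 369.5, 384 and 348 RPKM at 60% RWC, against 154, 153 and 153 in fresh leaves (log2 fold 1.35, SE 0.21, adjusted p = 0.00547). An a3-like subunit (Cp_V2_contig_2352) had 1.01, 1.10 and 0.948 RPKM at 60% RWC, against 34.1, 7.65 and 3.51 in fresh leaves (log2 fold -3.87, SE 0.95, adjusted p = 0.0274 [0.101 to 0.11]), with 13.2% of its reads shared with other contigs. Ion transport genes as a whole had 50 contigs higher and 38 lower of 230 tested [25 to 29 and 9 to 11]. Outer envelope pore protein 16-2 is a channel of the chloroplast envelope. Contig Cp_V2_contig_7031 had 7945, 8928 and 7929.5 RPKM at 60% RWC, against 252, 79.3 and 178 in fresh leaves (log2 fold 5.64, SE 0.58, adjusted p = 0.00148).

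Housekeeping lists held smaller shares of called contigs than the whole table (26.4% called either way) when all 6 libraries were used. Respiratory chain genes had 14 contigs higher and 15 lower of 175 tested [1 and 3 to 6] (9 higher without fresh replicate 1). Cytosolic ribosomal proteins had 23 contigs higher and 32 lower of 427 tested [3 to 4 and 2 to 4] (15 higher and 16 lower without fresh replicate 1, 119 higher without fresh replicate 2, 50 lower without fresh replicate 3). Organelle ribosomal proteins had 9 contigs higher and 9 lower of 160 tested [0 and 0 to 1] (35 higher and 19 lower without fresh replicate 2, 5 higher without fresh replicate 3). Their most abundant members were not called. Ubiquitin-40S ribosomal protein S27a (Cp_V2_contig_11049) had 517, 547 and 515 RPKM at 60% RWC, against 566, 671 and 408 in fresh leaves (log2 fold 0.04, SE 0.24, adjusted p = 0.915). A subunit of NADH dehydrogenase (Cp_V2_contig_19778) had 205, 209.6 and 195 RPKM at 60% RWC, against 214, 195 and 189.6 in fresh leaves (log2 fold 0.11, SE 0.20, adjusted p = 0.72). An exception was the iron-sulfur subunit 3 of succinate dehydrogenase, an isoform known from seeds in Arabidopsis. Contig Cp_V2_contig_3481 had 337, 269 and 338 RPKM at 60% RWC, against 49.8, 6.18 and 8.16 in fresh leaves (log2 fold 3.87, SE 0.93, adjusted p = 0.0257 [0.0728 to 0.0818]). Histones had 2 contigs higher and 5 lower of 41 tested [1 to 2 and 1] (4 higher and 8 lower without fresh replicate 2). Histone H2B.2 (Cp_V2_contig_46388) had 215, 165 and 188 RPKM at 60% RWC, against 0.208, 0.213 and 0.487 in fresh leaves (log2 fold 9.34, SE 0.41, adjusted p = 0.000157). Histone H4 (Cp_V2_contig_5641) had 70.4, 77.6 and 89.4 RPKM at 60% RWC, against 119, 146 and 173 in fresh leaves (log2 fold -0.79, SE 0.22, adjusted p = 0.0387 [0.118 to 0.174]). Ubiquitin ligase contigs had 99 contigs higher and 123 lower of 1074 tested [39 to 47 and 41 to 46] (195 lower without fresh replicate 2). Autophagy genes had 5 contigs higher and 0 lower of 55 tested [1 and 0] (3 higher without fresh replicate 1, 1 lower without fresh replicate 2, 8 higher and 1 lower without fresh replicate 3, 3 lower at an unadjusted p under 0.05, 1 by DESeq2 and 0 by limma). Transposon-like contigs had 70 contigs higher and 53 lower of 556 tested [38 to 42 and 15 to 21]. A Ty1-copia type contig (Cp_V2_contig_4554) had 462, 417 and 274 RPKM at 60% RWC, against 2.89, 3.61 and 2.76 in fresh leaves (log2 fold 7.06, SE 0.36, adjusted p = 0.000198). Clock genes had 0 contigs higher and 1 lower of 87 tested (3 higher and 2 lower without fresh replicate 1, 19 higher and 22 lower without fresh replicate 2, 1 higher and 11 lower without fresh replicate 3, 2 higher at an unadjusted p under 0.05, 1 by DESeq2 and 2 by limma). ELF4-LIKE 3 is a relative of an evening clock protein. Contig Cp_V2_contig_23379, the 1 clock contig that fell, had 0.271, 0.633 and 1.17 RPKM at 60% RWC, against 47.3, 23.2 and 22.1 in fresh leaves (log2 fold -5.41, SE 0.64, adjusted p = 0.00228).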

How the data were processed

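Leaves of Craterostigma plantagineum at 60% and 100% RWC (relative water content) were sequenced as 75 bp paired-end reads in 5 MiSeq runs from a stranded kit, per the labels' protocols. Leaf pools of separate plants served as replicates. The authors assembled the reads into contigs and deposited a whole-number read count per contig, with the reads unique to it, and RPKM, scaled by contig length and by counted reads, per the file headers. The assembler, aligner, strand setting, and whether a pair counts as 1 or 2 reads are not given in the sources, so overlapping antisense transcripts may share reads. A read that matches several contigs enters the total count.

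The counts of the 6 libraries were tested with edgeR 4.0.16 (R 4.3.3, TMM scaling, quasi-likelihood test, filterByExpr with a minimum count of 10 and a total of 15), and p-values were adjusted over 44634 contigs at a threshold of 0.05. With 14784251 to 17864253 reads per library and no molecular identifiers, intervals and the floor of 3 counts cover counting error only. An exact permutation test of 3 against 3 libraries cannot go below 0.10, so none is given for single values. The alternatives were DESeq2 1.42.0 (its size factors, and its test), limma 3.58.1 (voom with sample weights), library totals alone, no filter, unique reads, all 12 libraries, a replicate block, and leaving out each library. The test was checked on simulated counts. Replicates differed by more than counting noise in a chi-square comparison of every pair, so none was merged.

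Members and gene lists were chosen with earlier results of these data known. Lists were built from words in the deposited descriptions, words that matched unrelated proteins were taken out after reading the matches, and some lists, such as LEA proteins, receptor-like kinases and ethylene, were added. A marker list for organisms other than plants could not be made, because the descriptions hold green plants alone. For each list the text names the tested contig with the highest mean RPKM, and the largest rise and fall among called contigs in the upper 50% by level whose groups do not overlap. It also names contigs among the 8 largest rises and 8 largest falls in mean RPKM. Some of these are left out for length, and contigs with a dagger stand outside this rule. The table's 4 columns of group means were not used. Python 3.11.15, scipy 1.17.1 and matplotlib 3.10.9 computed intervals and plots.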

Additional observations from a re-analysis of the deposited data

How the results depend on the processing

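The counts of 4450 contigs higher and 7316 lower moved most with which library was left out. Leaving out each library gave 1991 to 7352 contigs higher and 2637 to 9566 lower, the low ends without a 60% library and the high ends without fresh replicate 2. Each edgeR fit shared 1 estimate of the spread per contig over all its libraries. The fit to all 12 libraries called 7241 higher and 10848 lower. DESeq2's test called 6063 higher and 9953 lower, DESeq2's size factors 4509 and 7207, limma voom with sample weights 5003 and 7752, no filter 4478 and 7334, and unique reads 4459 and 7339. With library totals alone the median log2 fold of all contigs was -0.15, against -0.05 with TMM, and 3591 contigs were higher and 8284 lower, so 30.2% of calls were higher, against 37.8%. Called contigs kept their direction wherever both fits called them, except 1 contig with unique reads. No called contig of the text changed sign. Contigs with log2 folds near 0 or large spread that were not called did, and the cause was not tested. With library totals alone, the Cp_V2_contig_4576 log2 fold was -0.10, the Cp_V2_contig_11049 log2 fold -0.058 and the Cp_V2_contig_55 log2 fold -0.043. With limma voom, Cp_V2_contig_18810 had 0.020 and Cp_V2_contig_172 had 0.14. Over the fits without a library, the log2 fold ranged from -0.085 to 0.60 in Cp_V2_contig_1735, -1.12 to 0.17 in Cp_V2_contig_593, -0.46 to 1.36 in Cp_V2_contig_4576, -0.99 to 0.79 in Cp_V2_contig_1204 and -0.18 to 0.28 in Cp_V2_contig_18810. It ranged from -0.45 to 0.033 in Cp_V2_contig_15735, -0.15 to 0.15 in Cp_V2_contig_11049, -0.11 to 0.12 in Cp_V2_contig_55, -0.85 to 0.050 in Cp_V2_contig_172 and -0.036 to 0.58 in Cp_V2_contig_5435.

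Libraries share replicate numbers, but the labels do not say that a number marks a shared batch. The deviations of same-numbered libraries correlated at 0.126, 0.0899 and 0.218, below 0.1 in 1 pair. Those of libraries with different numbers correlated at -0.249 to 0.146. Not every library correlated best with its own number, so the numbers were not taken as pairs. With a replicate block, 3498 contigs were higher and 5987 lower, and Cp_V2_contig_593, Cp_V2_contig_1204 and Cp_V2_contig_18810 had log2 folds of 0.043, 0.17 and 0.016, against negative values without it. In simulated counts at the depth of these libraries, with 1 common spread per group, no contig changed 2-fold was called. Contigs under 2-fold were called in the data, so that rate is not the rate of the data.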
